A study of Mus musculus with 8 samples.

Results

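The Cyp2a and Cyp2b genes examined here are 7 cytochrome P450 genes of mouse chromosome 7, chosen by name: Cyp2a4, Cyp2a5, Cyp2a12 and Cyp2a22 of the Cyp2a subfamily, and Cyp2b9, Cyp2b10 and Cyp2b13 of the Cyp2b subfamily. All 7 were found among the 25690 genes of the deposited table. RNA of liver tissue was sequenced from 4 libraries of wildtype control mice (numbers 1, 3, 10 and 12 in their titles) and 4 libraries of hepatic FOXO1 knockout (numbers 3, 9, 10 and 11). The sources used here give tissue and genotype, and leave out the Cre driver, strain, sex, age and feeding state. They also do not state that each library is a separate animal. The p-values therefore cover only library-to-library spread, which may be technical.

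Cytochrome P450 enzymes of family 2 are heme proteins of the endoplasmic reticulum that oxidise drugs, plant compounds, steroids and other small molecules, taking electrons from the reductase encoded by Por. In liver the Cyp2a and Cyp2b genes are known for their response to xenobiotics through the nuclear receptors CAR (Nr1i3) and PXR (Nr1i2). Several are also known for a strong sex difference set by growth hormone: Cyp2a4, Cyp2b9 and Cyp2b13 are more abundant in female than in male mouse liver.

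The members fell into close pairs by sequence, and the pairs bear on every value that follows, since reads of near-identical copies can be split between them. In the longest coding transcripts of GENCODE M21, the reading frames of Cyp2a4 and Cyp2a5 were 98.5% identical over their aligned bases. They had 23 different bases and one run of 216 identical bases. A further 57 bases were gaps, as the frames are 1485 and 1542 bases long. Those of Cyp2a12 and Cyp2a22 were 97.0% identical, with 45 different bases. Between the pairs the identity was 75.3% to 76.7%. Cyp2b9 and Cyp2b13 were 92.7% identical, and Cyp2b10 was 87.7% identical to Cyp2b9. Of all windows of 75 bases in the Cyp2a4 transcript, 22.1% also occurred in a transcript of another gene, mainly Cyp2a5, against 25.5% for Cyp2a5, 14.3% for Cyp2a12 and 13.4% for Cyp2a22. The stretch of 90 bases in which the Cyp2a4 and Cyp2a5 reading frames differ most is shown from those transcripts, with the 5 different bases in capitals, because reads over it can tell the genes apart.
Cyp2a4: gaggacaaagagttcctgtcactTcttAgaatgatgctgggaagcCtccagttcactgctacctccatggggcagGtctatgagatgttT
Cyp2a5: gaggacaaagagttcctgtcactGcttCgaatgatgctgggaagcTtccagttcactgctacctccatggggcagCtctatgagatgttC

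The same pairs appeared in the sequence before the start sites. In the RefSeq table (GRCm38.p6, the assembly of mm10), which held a promoter for each of the 7 members, the 250 bases before the start of Cyp2a4 and of Cyp2a5 were identical at 245 of 249 aligned bases. Cyp2a12 and Cyp2a22 were identical at 215 of 239, and Cyp2b9 and Cyp2b13 at 248 of 250. Whether these sequences bear on the levels was not tested, and the windows below show part of them for each Cyp2a pair. They are chr7:26307002-26307151 (plus strand), chr7:26835148-26835297 (plus strand), chr7:27028900-27029049 (plus strand) and chr7:26939416-26939565 (minus strand), and capitals mark the bases that differ within a pair.
Cyp2a4: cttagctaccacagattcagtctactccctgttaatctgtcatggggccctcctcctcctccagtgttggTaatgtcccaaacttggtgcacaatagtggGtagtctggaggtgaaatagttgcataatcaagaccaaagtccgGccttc
Cyp2a5: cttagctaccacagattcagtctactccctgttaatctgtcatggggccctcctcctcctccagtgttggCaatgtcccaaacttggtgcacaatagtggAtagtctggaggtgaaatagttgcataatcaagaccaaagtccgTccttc
Cyp2a12: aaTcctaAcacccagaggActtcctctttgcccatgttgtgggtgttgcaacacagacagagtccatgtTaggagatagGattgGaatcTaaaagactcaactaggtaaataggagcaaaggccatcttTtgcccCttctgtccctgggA
Cyp2a22: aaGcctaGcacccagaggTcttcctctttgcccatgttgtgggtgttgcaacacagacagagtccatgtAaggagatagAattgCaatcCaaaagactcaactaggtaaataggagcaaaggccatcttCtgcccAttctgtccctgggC

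Motifs were searched on both strands in the 250 bases before the start. The letters TTGCATAA, a C/EBP-like sequence, stood 70 and 71 bases before the start of Cyp2a4 and Cyp2a5 and 58 bases before that of Cyp2b10, and in 201 of all 27025 promoters (0.744%). They were not found in the windows of Cyp2a12 and Cyp2a22. Cyp2b9 and Cyp2b13 had TTGTATAA 59 bases before the start, a sequence held by 0.533% of promoters. The forkhead sequence GTAAACA (3.09% of promoters) was in none of the 7 windows, and AAAACAA (8.27%) was in that of Cyp2b10 alone. TATAAA (12.97%) was in the windows of the 4 Cyp2a genes, the receptor hexamer AGGTCA (13.8%) in those of Cyp2b9 and Cyp2b13, and the hexamer AGTTCA (11.9%) in none. No motif overlapped another in these windows. The position of the 8-base sequence (capitals) is shown for Cyp2b10, chr7:25897538-25897617, and Cyp2b9, chr7:26173289-26173368, both on the plus strand.
Cyp2b10: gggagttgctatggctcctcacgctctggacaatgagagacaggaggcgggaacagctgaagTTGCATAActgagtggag
Cyp2b9: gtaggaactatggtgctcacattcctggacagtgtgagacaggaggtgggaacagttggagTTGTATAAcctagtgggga

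Values are FPKM, which divide a gene's fragments by its transcript length and by the size of the library, so levels of different genes can be set side by side. Depth, read from the FPKM of a single fragment, ranged from 26.8 (wildtype 3) to 35.1 (knockout 11) in units of 1e6 fragments. Foxo1 averaged 3.35 ± 0.341 FPKM over wildtype and 0.269 ± 0.0743 over knockout libraries (SD, n = 4 each), and its groups did not overlap. Of the 10 hepatocyte markers in the table, 0 were below 0.1 FPKM in every library. Knockouts 3 and 11 stood apart in acute phase transcripts, blood protein genes raised in inflammation. Their summed level was 131840 and 126370 FPKM there, 18654 and 18274 in knockouts 9 and 10, and 16037 to 17967 in wildtype.

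Cyp2a5, which encodes the coumarin hydroxylase of mouse liver that also oxidises nicotine, fell in the knockout liver and was the member with the highest level in wildtype. The gene (ENSMUSG00000005547) lies at chr7:26835305-26843548 (mm10, plus strand). Its FPKM was 948, 381, 589 and 649 in wildtype 1, 3, 10 and 12, and 133, 166, 199 and 328 in knockout 3, 9, 10 and 11. Every knockout library lay below every wildtype library, with the narrowest gap between wildtype 3 and knockout 11. The means were 642 ± 234 and 207 ± 85.5 FPKM (SD, n = 4 each), a 3.11-fold lower level. The difference on the log2(FPKM + 1) scale was -1.64 (SE 0.32, limma adjusted p = 0.0109), and without knockouts 3 and 11 it was -1.74 (limma adjusted p = 0.0238).

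Cyp2a4, a steroid hydroxylase gene (ENSMUSG00000074254, chr7:26307169-26315088, plus strand), fell as well, from a much lower level. Its FPKM was 59.9, 22.8, 42.1 and 49.5 in the wildtype and 12.1, 14.4, 15.9 and 24.8 in the knockout libraries. The groups overlapped, because knockout 11 was above wildtype 3. The means were 43.6 ± 15.7 and 16.8 ± 5.59 FPKM (SD, n = 4 each), and the log2 change was -1.29 (SE 0.30, limma adjusted p = 0.0202). Leaving out wildtype 1, wildtype 10, wildtype 12 or knockout 3 ended the call of Cyp2a4 (limma adjusted p = 0.0589, 0.0511, 0.0577 and 0.0575). So did dropping the filter on low values (limma adjusted p = 0.0560).

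Cyp2a12, an enzyme gene known for hydroxylating bile acids (ENSMUSG00000060407, chr7:27029081-27037375, plus strand), did not pass. It was at 312, 277, 320 and 278 FPKM in the wildtype and 240, 351, 307 and 255 in the knockout libraries, and the knockout values spanned all the wildtype values. The means were 297 ± 22.5 and 288 ± 50.7 FPKM (SD, n = 4 each), with a log2 change of -0.05 (SE 0.13, limma adjusted p = 0.819). Cyp2a22 (ENSMUSG00000091867, chr7:26931631-26939384, minus strand) was at 12.5, 10.5, 11.6 and 12.1 FPKM in the wildtype and 9.57, 13.8, 12.2 and 9.78 in the knockout libraries. The means were 11.7 ± 0.873 and 11.3 ± 2.04 FPKM (SD, n = 4 each), with a log2 change of -0.05 (SE 0.12, limma adjusted p = 0.827). For both genes knockout 9 was highest and knockout 3 lowest of the 8 libraries. With median-ratio scaling or quantile normalization the sign of both turned (0.05 and 0.18 for Cyp2a12, 0.05 and 0.03 for Cyp2a22), as it did without knockouts 3 and 11 (0.15 for each), and neither passed.

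**Figure D1:**
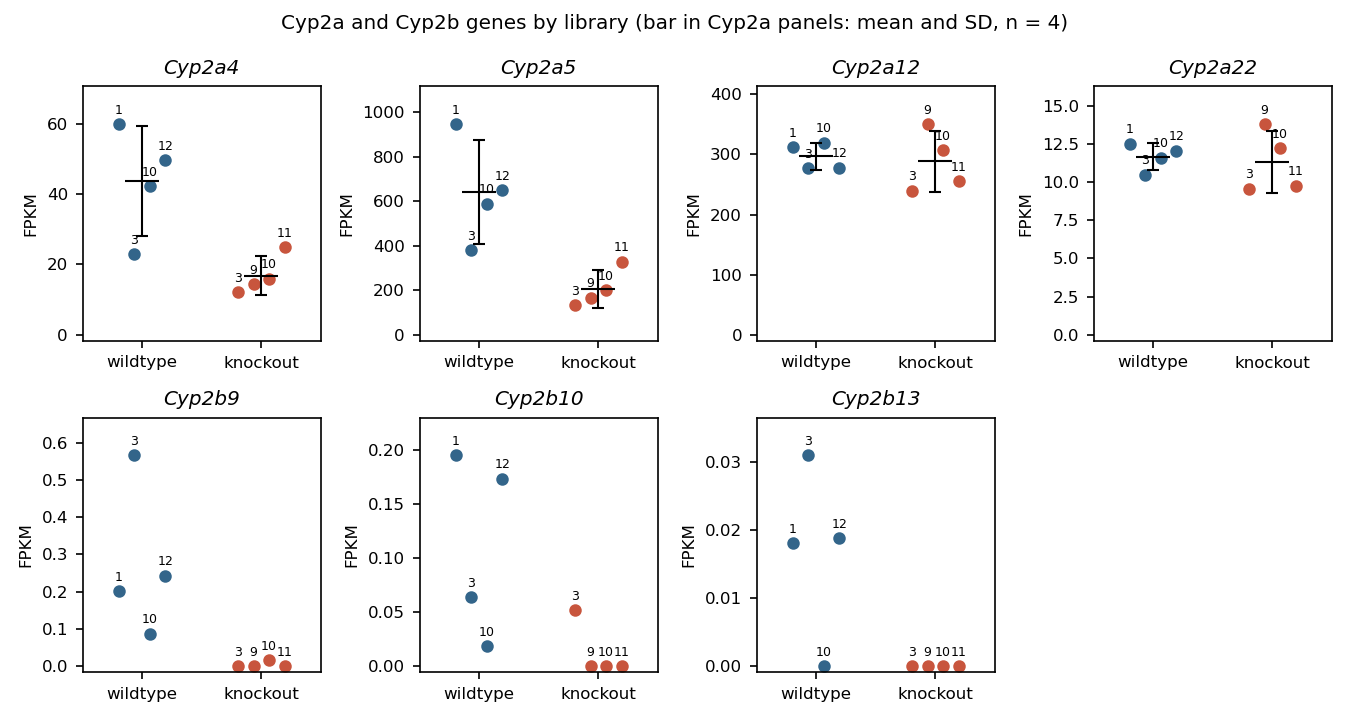
FPKM of the 7 genes (vertical axes, each from 0) in the wildtype and knockout libraries, with the library number beside each point and the mean and SD (n = 4) as bars in the Cyp2a panels. Cyp2a5 in the knockout libraries lies between 133 and 328 FPKM, below the lowest wildtype library at 381, while Cyp2a12 and Cyp2a22 overlap between the groups.

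Of the 4 members tested (those with a mean of at least 1 FPKM), 2 were lower and 0 higher in the knockout liver, beside 11.7% lower and 2.7% higher among the 10250 genes tested (limma, Benjamini-Hochberg adjusted p under 0.05). Groups did not overlap for 1 of the 4, Cyp2a5, beside 21.3% of all tested genes. The median log2 change of the 4 was -0.67, and that of all tested genes was -0.08. Over all genes the call was 277 higher and 1195 lower, a split that moved to 485 and 720 with median-ratio scaling and 470 and 652 after quantile normalization. Removing a trend along transcript length gave 516 and 594, and removing one along GC content 548 and 822. Cyp2a4 and Cyp2a5 passed under each of these 4. The other 3 members, all Cyp2b genes, lay below the level needed for the test.

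Within a library, the ratio of Cyp2a5 to Cyp2a12 does not depend on how the whole library is scaled. Cyp2a5 was at 304%, 138%, 184% and 233% of Cyp2a12 in the wildtype and at 55.4%, 47.3%, 64.8% and 129% in the knockout libraries. The 2 genes thus changed places in the order of levels in knockouts 3, 9 and 10, but not in knockout 11. The mean log2 ratio was lower by 1.59 in the knockout group (knockout minus wildtype -1.59), given without a test because the pair was chosen with the results of both genes known.

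The Cyp2a sum went from 1333, 691, 962 and 989 FPKM in the wildtype to 394, 545, 535 and 618 in the knockout libraries, and the groups did not overlap. The means were 994 ± 263 and 523 ± 93.5 FPKM (SD, n = 4 each), 1.90 times lower in the knockout. Of the 471 FPKM between the means, 462 came from Cyp2a4 and Cyp2a5 together. Cyp2a5 held 63.3% ± 6.78 of the sum in wildtype and 38.6% ± 10.04 in knockout libraries (SD, n = 4 each), and Cyp2a12 held 31.2% ± 7.12 and 56.0% ± 10.2. The sum is a description without a test, as its members were chosen with results of these data known.

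**Figure D2:**
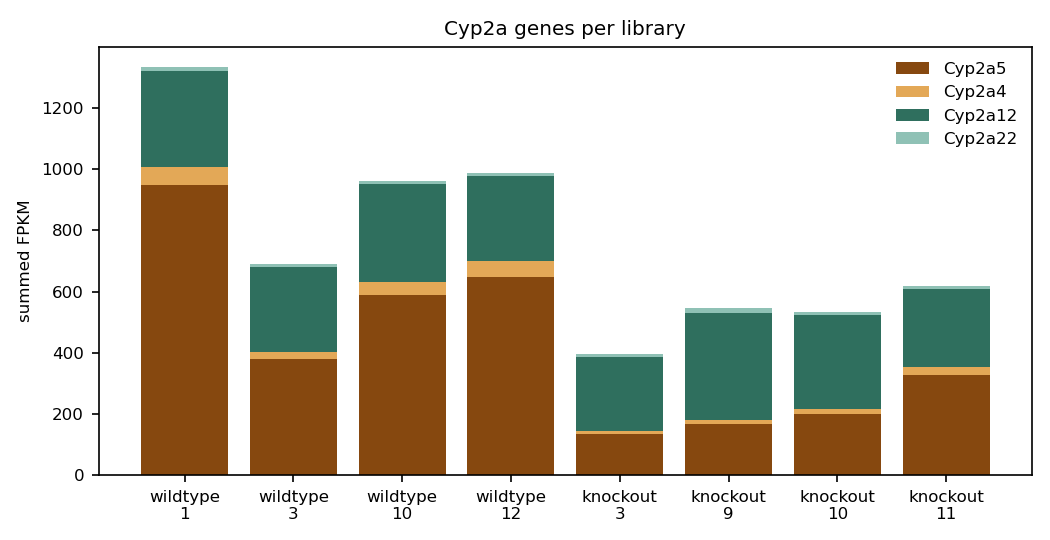
Stacked bars of FPKM of the 4 Cyp2a genes (vertical axis, from 0) in each of the 8 libraries. The Cyp2a5 part shrinks from 381 to 948 FPKM in the wildtype to 133 to 328 in the knockout libraries, while the Cyp2a12 part stays between 240 and 351 in all 8.

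The lower gene of each close pair was a small share of the higher one. Cyp2a4 was at 5.98% to 7.63% of Cyp2a5 in the wildtype and at 7.57% to 9.08% in the knockout libraries, although Cyp2a5 itself varied 2.49-fold among wildtype and 2.47-fold among knockout libraries. The means of that share were 6.77% ± 0.756 and 8.32% ± 0.679 (SD, n = 4 each), and the groups overlapped only through wildtype 12 and knockout 11. Cyp2a22 was at 3.63% to 4.34% of Cyp2a12 in wildtype and at 3.83% to 3.99% in knockout libraries. The shared 75-base windows counted above let reads of one gene be counted for its partner. The part of this in the levels of Cyp2a4 and Cyp2a22 was not tested. Cyp2a5 and Cyp2a12 exceeded their partners by more than 10-fold in every library.

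**Figure D3:**
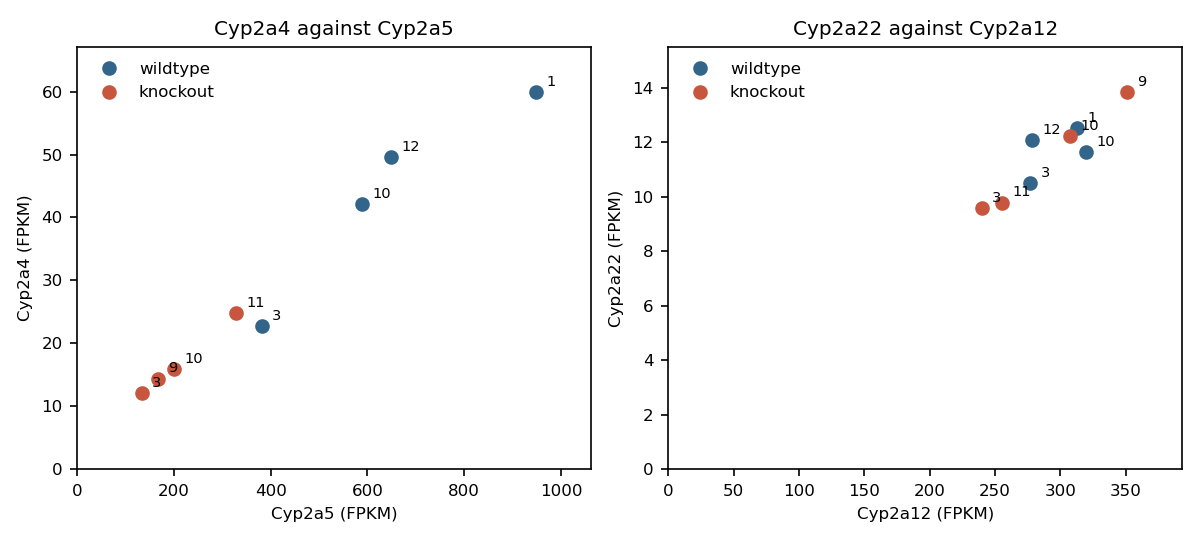
FPKM of the lower gene of each pair (vertical axis) against the higher gene (horizontal axis), 1 point per library with its number. The Cyp2a4 points rise with Cyp2a5 from knockout 3 to wildtype 1, and the Cyp2a22 points of both groups lie mixed along Cyp2a12.

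The Cyp2b genes were near the limit of detection in every library and were therefore outside the test over all genes. Cyp2b9 (ENSMUSG00000040660, chr7:26173411-26210661, plus strand), a gene of female-predominant expression, was at 0.201, 0.566, 0.0874 and 0.243 FPKM in wildtype 1, 3, 10 and 12. It was at 0.0163 FPKM in knockout 10 and listed at 0 in knockouts 3, 9 and 11. At the implied depth the wildtype values stand for about 11.3, 28.5, 5.19 and 13.4 fragments, and the value of knockout 10 for 1.03. The groups did not overlap. With no filter on low values Cyp2b9 did not pass (log2 change -0.33, limma adjusted p = 0.0973), but it did with no filter and a pseudocount of 0.1 in place of 1 (-1.70, limma adjusted p = 0.0236), a setting chosen after seeing the data.

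Cyp2b10 (ENSMUSG00000030483, chr7:25897620-25926624, plus strand), the gene best known for induction by phenobarbital through CAR, was at 0.195, 0.0638, 0.0182 and 0.173 FPKM in the wildtype libraries. It was at 0.0518 FPKM in knockout 3 and listed at 0 in the other knockouts, so the groups overlapped. These values stand for about 11.3, 3.28, 1.105 and 9.77 fragments in wildtype and 3.28 in knockout 3. Cyp2b13 (ENSMUSG00000040583, chr7:26061497-26096197, plus strand), the other female-predominant gene, was at 0.0181, 0.0309, 0 and 0.0187 FPKM in wildtype and listed at 0 in all 4 knockouts. Neither passed without the filter (limma adjusted p = 0.154 to 0.242 over both pseudocounts). Over the 3 genes the implied fragments added up to 87.4 in the 4 wildtype and 4.31 in the 4 knockout libraries, and the mean of the Cyp2b sum in knockout was 0.0422 of that in wildtype. An exact 0 may be a failed estimate. The albumin gene Alb, far above the Cyp2b genes in level, was listed at 0 in knockout 10 and at 20877 FPKM or more elsewhere. The reason for that 0 was not tested, and a 0 is not read as absence.

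All 7 members lie within 1.14 Mb of chromosome 7 (chr7:25897620-27037375), which holds 15 protein-coding genes of the table. Apart from the members, 1 of these was tested. It is Cyp2g1, a P450 gene best known from olfactory mucosa, and lies next to Cyp2a5 at chr7:26808892-26821205. Cyp2g1 was at 4.01, 1.83, 2.41 and 2.22 FPKM in the wildtype and 0.607, 0.849, 0.718 and 1.49 in the knockout libraries, and its groups did not overlap. It fell by 0.90 on the log2 scale (SE 0.19, limma adjusted p = 0.0156), and its FPKM was 2.86 times lower. As with Cyp2a5, wildtype 1 was highest, wildtype 3 lowest among wildtype, and knockout 11 highest among knockouts. Cyp2g1 stood at 0.342% to 0.512% of Cyp2a5 over the 8 libraries. It shares 3.13% of its 75-base windows, all with a gene other than the members. The next 2 genes along the chromosome, Cyp2a22 and Cyp2a12, did not pass. The remaining 7 genes of the region (Cyp2b19, Cyp2b23 and genes of the Vmn1r and Nlrp families) were listed at 0 throughout.

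**Figure D4:**
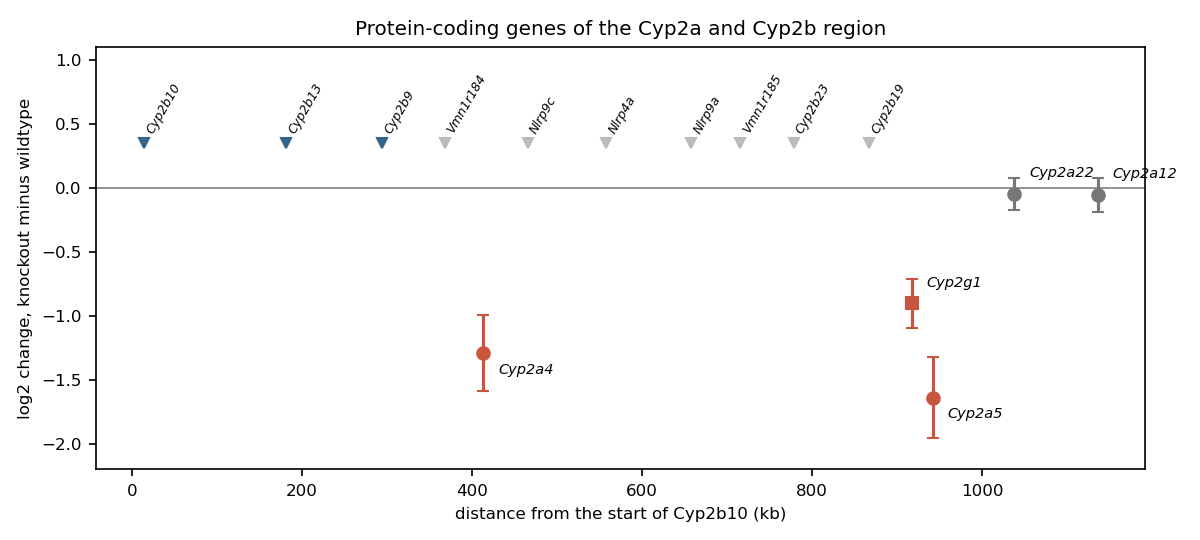
Log2 change, knockout minus wildtype, with its SE (vertical axis) of the tested genes of the region against distance from the start of Cyp2b10 in kb (horizontal axis). Red marks genes that passed (Cyp2a4 at -1.29, Cyp2g1 at -0.90, Cyp2a5 at -1.64), grey those that did not, circles members, the square Cyp2g1, and triangles (placed without a value) genes below the level needed for the test.

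Among 26 factors known to act on these genes, 3 fell and 3 rose, beside 11.7% and 2.7% of all tested genes. The receptor gene Nr1i3 had the smallest adjusted p of the list. Nr1i3, which encodes CAR, was at 133, 87.3, 128 and 110 FPKM in the wildtype and 54.3, 69.5, 54.8 and 69.9 in the knockout libraries. Every knockout library was below every wildtype library, and the level was 1.84 times lower. The log2 change was -0.86 (SE 0.15, limma adjusted p = 0.00823). PXR (Nr1i2) was at 17.8 ± 2.19 FPKM in wildtype and 23.5 ± 8.33 in knockout (SD, n = 4 each), with knockout 11 highest at 35.9, and did not pass (limma adjusted p = 0.297). For Rxra, the dimer partner of both receptors, the means were 37.9 ± 3.09 and 46.0 ± 6.91 FPKM (SD, n = 4 each). Its groups did not overlap, and the gene missed the threshold (0.27, limma adjusted p = 0.155), except after quantile normalization (0.44, limma adjusted p = 0.0498).

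The other factors that fell were Nfe2l2, which encodes the oxidative stress factor NRF2 and had a log2 change of -0.62, and Dnajc7, a chaperone that holds CAR in the cytoplasm, with -0.45 (limma adjusted p = 0.0339 and 0.0291). Those that rose were Egfr, the receptor through which epidermal growth factor keeps CAR inactive, with 0.82, Hnf4a, with 0.43, and Foxa3, with 0.54 (limma adjusted p = 0.0188, 0.0494 and 0.0413). Foxa3 was named after its values were seen. Of these, Hnf4a lost its call under 14 of the 22 alternatives other than the block, Nfe2l2 under 13, Foxa3 under 8, Dnajc7 under 6 and Egfr under 2. The median log2 change of the list was 0.12.

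Of 16 genes of electron transfer and heme metabolism, 2 fell and 1 rose, beside 11.7% and 2.7% of all tested genes. Cyb5a, the cytochrome b5 that can pass an electron to P450 enzymes, was at 2342, 2108, 2025 and 1682 FPKM in wildtype and 1149, 1290, 1178 and 1341 in knockout libraries. Its groups did not overlap, and the log2 change was -0.71 (SE 0.12, limma adjusted p = 0.00802), or -0.46 (limma adjusted p = 0.0505) with the trend along transcript length removed. Blvrb, a biliverdin reductase gene, had -0.51 and Hmox1, the heme oxygenase gene, 0.48 (limma adjusted p = 0.0165 and 0.0273). Blvrb lost its call under 4 alternatives other than the block, and Hmox1 under 7. Por, the P450 reductase gene, was at 68.1, 51.6, 64.0 and 81.7 FPKM in wildtype and 144, 57.0, 79.2 and 163 in knockout libraries. It was raised in knockouts 3 and 11, the libraries with high acute phase transcripts. The gene did not pass (0.63, limma adjusted p = 0.211), except without knockout 9 (0.90, limma adjusted p = 0.0449). Without knockouts 3 and 11 the change of Por was 0.04 (limma adjusted p = 0.930). Alas1, the first enzyme gene of heme synthesis, was at 28.1, 27.2, 49.5 and 16.5 FPKM in wildtype and 81.3, 29.4, 101 and 140 in knockout libraries. It did not pass (1.41, limma adjusted p = 0.0714), but did without knockout 9 (1.86, limma adjusted p = 0.0128). Weighting the libraries by their spread also brought it past the threshold (1.47, limma adjusted p = 0.0322). Its change was 0.93 (limma adjusted p = 0.312) without knockouts 3 and 11.

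**Figure D5:**
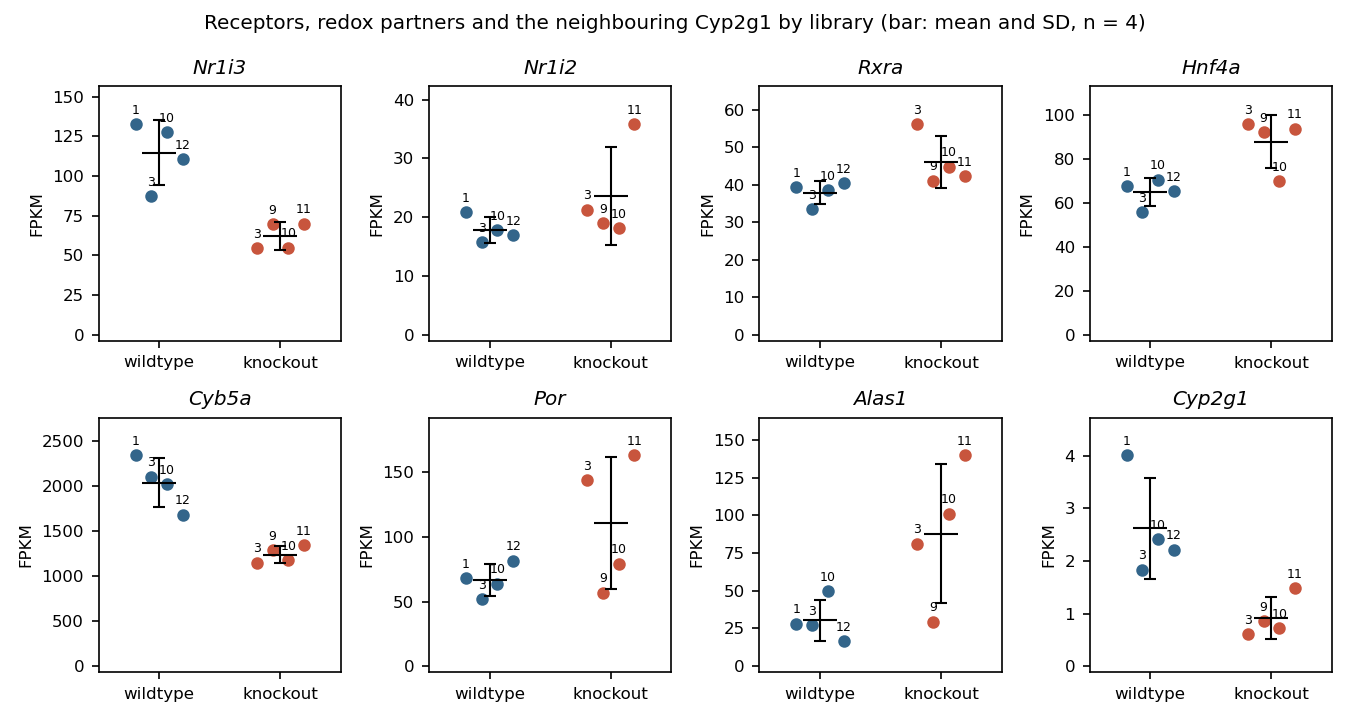
FPKM (vertical axes, each from 0) of 3 nuclear receptor genes and Hnf4a, of Cyb5a, Por and Alas1, and of the neighbouring Cyp2g1, by library, with mean and SD (n = 4). Nr1i3, Cyb5a and Cyp2g1 separate the groups, whereas Por is high in knockouts 3 and 11 alone, at 144 and 163 FPKM.

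Of 42 tested genes known to respond to CAR or PXR activators, 17 fell and 1 rose, beside 11.7% and 2.7% of all tested genes. The median log2 change of the 42 was -0.52. The 4 with the smallest adjusted p were Cyp2c37, Cyp2c54, Cyp2c38 and Cyp2c50, similar genes of another chromosome, with log2 changes of -2.94, -2.67, -2.35 and -2.07. Of the 29 other Cyp2 genes tested, 10 fell and 0 rose, Cyp2g1 and these 4 among them, with a median of -0.32. These lists have 7 tested genes in common and, like the members, were drawn up with earlier results of these data known, so their counts are descriptions.

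The sex-dependent members were read beside genes of known sex difference. The Y-linked Ddx3y was at 8.69 to 13.4 FPKM in all 8 libraries, and the X-linked Xist at 0.00870 to 0.0356 FPKM in wildtype and 0.0598 to 0.118 in knockout libraries. Of the 4 Y-linked genes, all tested, Eif2s3y fell (-0.45, limma adjusted p = 0.0480). For the lists that follow, the shares over all tested genes were 11.7% lower and 2.7% higher. Of 19 tested genes of higher expression in female liver, members left out, 5 fell and 1 rose, with a median log2 change of -0.36. Cyp3a16 (-0.70), Fmo2 (-0.75) and Acot3 (-1.60) fell, and Ntrk2 (0.87) rose. Among 22 tested genes known to be higher in males, 7 rose and 1 fell, with a median of 0.46, and the rises included Moxd1 (5.01), Capn8 (1.47) and Cyp7b1 (0.99). Of 11 genes of the growth hormone axis, 1 rose, the estrogen receptor gene Esr1 (0.70, limma adjusted p = 0.0343), and 0 fell. Esr1 and Eif2s3y each lost their call under 11 alternatives other than the block.

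Cyp2a5 is known as a gene of hepatocytes near the central vein. Of 20 tested markers of that zone, 3 rose and 2 fell, beside 2.7% and 11.7% of all tested genes. The median log2 change of the 20 was -0.09. Slc13a3 (1.15), Cyp1a2 (0.52) and Glul (0.43), the glutamine synthetase gene, rose, and Rgn (-0.55) and Cyp2e1 (-0.60) fell, the latter call being lost under 11 of 22 alternatives other than the block. The summed level of all 23 markers found was 7925 to 9896 FPKM in wildtype and 5860 to 8679 in knockout libraries, so the groups overlapped. Cyp2e1 was a large part of that sum, at 3109 to 4506 FPKM in wildtype and 2106 to 2973 in knockout libraries. Of 11 tested sinusoidal endothelial markers 3 fell and 0 rose, and the summed level of all 12 was 85.0 to 107 FPKM in wildtype and 51.1 to 85.2 in knockout libraries. Lymphocyte and neutrophil markers summed to 3.003 to 6.42 FPKM in wildtype, with Cd3e and Cd8a below 0.1 FPKM in every library. In knockouts 3, 9, 10 and 11 their sum was 62.0, 4.38, 8.18 and 148 FPKM, so it was high in knockouts 3 and 11. Most of that came from the neutrophil genes S100a8 (31.4 and 77.25 FPKM in knockouts 3 and 11) and S100a9 (24.3 and 57.5). Cd4, the highest lymphocyte marker in these libraries, was at 1.69 and 0.943 FPKM, beside 0.331 to 1.26 in wildtype. The part of these shifts in the values of the members was not tested. In bulk liver RNA, fewer cells of a type and less RNA per cell cannot be told apart. Cyp2a5 was lowest in knockout 3 and highest among knockouts in knockout 11, the 2 libraries with high acute phase transcripts.

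Genes that followed the Cyp2a sum most closely over the 8 libraries, on the log2(FPKM + 1) scale, were 2300009A05Rik, Gabarapl1, an autophagy gene, and Amdhd1, an enzyme gene of histidine breakdown, with Pearson's r of 0.982, 0.977 and 0.974 and Spearman's rho of 0.976, 0.929 and 0.976. Cyp2g1 ranked 9 of the genes compared, with r of 0.968, and Nr1i3 ranked 21, with r of 0.955. The libraries fall into the 2 genotypes, which the genes share, so these values describe likeness over 8 libraries and carry no test. The closest to the Cyp2b sum were Cnih4, Ahnak and Gemin6 (r of 0.973, 0.969 and 0.963), against a sum that rests on the low fragment numbers given above. For that sum Cyp2g1 ranked 1532, with r of 0.641, and Nr1i3 ranked 1902, with r of 0.591.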

How the data were processed

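The authors deposited 1 table of FPKM for 25690 genes in 8 libraries. Per the submitters' processing notes, TopHat2 2.1.0, HTSeq and Cufflinks 2.2.1 were used with build mm10, with no role or order stated, and the unit was inferred from these tools and the values, since no header names it. The sources used here do not give annotation, read length or strandedness. Without strand, reads of overlapping genes cannot be told apart.

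Groups came from the titles. The 10250 genes whose mean reached 1 FPKM were kept. Their log2(FPKM + 1) values went into limma 3.58.1 (R 4.3.3), with no term but genotype, a mean trend in the variances, two-sided tests and Benjamini-Hochberg adjustment over all tested genes at 0.05. Changes of low genes come out too small on this scale. Exact zeros were taken as values. For depth, the lowest FPKM of single-transcript genes longer than 1500 bases were taken as 1 fragment. Implied fragments use the longest annotated transcript, and Cyp2b10 has 3 transcripts, so its numbers are the least certain. Names, positions and transcripts came from GENCODE M21 (24807 genes named), promoters from RefSeq.

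The members and the gene lists were chosen with earlier results of these data known. Named are the members, up to 4 genes with the smallest adjusted p from a list, Nr1i3, Nr1i2, Rxra, Hnf4a, Por, Alas1, Xist and Ddx3y in every case, tested neighbours, and the 3 genes most like each subfamily sum. Cyp2e1 and Foxa3 were added once their values were known. The fit was repeated with other pseudocounts, filters, scalings, weights and variance models, a block for the titles' numbers, and leaving out libraries. Removal of the GC trend, leaving out genes with a 0, and no filter with a pseudocount of 0.1 were chosen after seeing the data.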

Additional observations from a re-analysis of the deposited data

Results flagged for a closer look

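In 6 of the 99 groups of 4 libraries examined for the members and the genes named beside them, 1 library lay farther from its nearest neighbour than Dixon's criterion allows at the 95% level. Chance gives about 1 in 20 such groups where values are normally distributed. That rate does not cover Cyp2b9 and Cyp2b10, where a single value above 0 is always set apart from zeros. Cyp2b9 was at 0.0163 FPKM in knockout 10 and listed at 0 in the other knockouts, and Cyp2b10 was at 0.0518 FPKM in knockout 3 and listed at 0 in the others, which at this depth are about 1.03 and 3.28 fragments. Hnf4a was at 69.7 FPKM in knockout 10, below the 92.1 to 95.8 of the other knockouts. Foxa3 was at 23.8 FPKM in knockout 3, above the 16.3 to 17.0 of the others. Acot3 was at 8.19 FPKM in wildtype 1, against 3.42 to 3.85 in the other wildtype libraries. Gemin6 was at 2.99 FPKM in knockout 10, against 3.13 to 3.14 in the other knockouts.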

How the results depend on the processing

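Cyp2a5 kept its direction under 23 alternatives (log2 change -1.89 to -1.36) and passed under 22 of them, all but the replicate block, and Cyp2a4 kept its direction (-1.57 to -1.11) and passed under 17. The number of members called, 2, was 1 with no filter on low values, 1 to 2 when each library was left out, and 0 with the replicate block. It was 3 with no filter and a pseudocount of 0.1, where Cyp2b9 passed as well. The number of genes called, 1472, was 846 without knockouts 3 and 11 and 703 to 1657 when each library was left out. Only numbers 3 and 10 occur in both groups, and the deviations of their libraries from the group means correlated at -0.0079 and 0.022. These 2 values cannot show whether libraries of the same number share a batch. The titles do not say what the numbers mark. The replicate block left 2 genes called of 10250, with 1 residual degree of freedom by construction. The Cyp2a sum in knockout was 0.478 to 0.594 of wildtype when each library was left out, and the Cyp2b sum 0.0135 to 0.0562. The knockout minus wildtype difference in the mean log2 ratio of Cyp2a5 to Cyp2a12 lay between -1.89 and -1.40 when each library was left out. Of the 33 called genes named beside the members, 13 lost no call other than under the block, among them Nr1i3 and Cyp2g1, and 20 lost at least 1. None of the 33 reversed. Depth limits the Cyp2b genes, whose values rest on about 28.5 fragments or fewer per library.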
